A study of Mus musculus with 24 samples.

Results

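The genes described here are 33 genes of myelin and of mature oligodendrocytes, the glial cells that make myelin in the brain and spinal cord. They are a list of names drawn up with earlier results of these data known; the rule that picks them uses no measured value. All 33 listed genes matched 1 row each in a deposited table of 43430 genes of mouse cerebellum, and all 33 were among the 15300 genes that passed the filter on low counts. The 24 libraries came from 4 genotype groups of 6 mice, each with 3 males and 3 females, killed at about 7 weeks of age. The labels call the groups cKO+NDI1, cKO, NDI1 control and Cre control. The labels name neither the deleted gene nor the promoter that drives Cre. From general knowledge of the study, cKO mice lack Ndufs4, an accessory subunit of mitochondrial complex I, in the cells of the Nestin-Cre lineage, which takes in the precursors of both neurons and glia. NDI1 is a yeast NADH dehydrogenase that oxidises NADH without pumping protons, expressed from the Rosa26 locus after Cre acts; cKO+NDI1 mice carry the deletion and NDI1, and NDI1 control mice carry NDI1 with no deletion. The Cre control mice carry Cre, per their label. The sources used here do not give the strain or the further alleles of each group.

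Myelin is the stack of membrane that an oligodendrocyte winds around an axon, and it lets nerve impulses jump from node to node. Its compact layers are held together by a few abundant proteins on their inner and outer faces, and its lipids, rich in galactosylceramide, sulfatide and cholesterol, are made by enzymes that the oligodendrocyte switches on as it matures. In the cerebellum most myelin lies in the white matter, around the axons of Purkinje cells and the fibres that enter from the brain stem.

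Library totals ran from 7584374 to 19785264 counts assigned to genes. Levels are CPM, the usual read counts scaled to a common library total, here after TMM scaling, and levels of different genes are set beside each other only per length, as CPM per kilobase of exon (RPKM). Ndufs4, named here as the deleted gene, had 77.1 to 119.6 CPM (median 99.99) in cKO+NDI1 and 67.1 to 133 CPM (median 93.01) in cKO cerebella, against 106 to 199 CPM (median 123) in NDI1 control and 104 to 164 CPM (median 139.6) in Cre control cerebella. Its log2 fold change in cKO against Cre control was -0.47 ± 0.16 (SE, adjusted p = 0.0939), which did not pass the threshold of 0.05; a count over the whole gene does not isolate a deleted exon. Gt(ROSA)26Sor, the transcript of the locus that holds NDI1, had 5.95 to 9.501 CPM (median 6.497) in cKO+NDI1 and 5.66 to 8.18 CPM (median 6.91) in NDI1 control cerebella, against 23.8 to 47.7 CPM (median 34.6) in cKO and 26.9 to 46.9 CPM (median 36.2) in Cre control cerebella, so the groups labelled with and without NDI1 did not overlap. The tissue label was checked on Pcp2, a Purkinje cell gene, and Gabra6, a granule neuron gene, whose lowest levels in any library were 513 and 853 CPM. A list of 18 brain stem genes, mostly Hox genes, summed to 20.5 CPM in the third male library of cKO+NDI1, 22.7 CPM in the third female library of cKO and 20.97 CPM in the second male library of Cre control, and to between 1.94 and 8.06 CPM in the other 21 libraries. All 18 were found in the table and 1 of them was at 0 in every Cre control library (Isl1). These 3 libraries also had the highest summed level of the 33 myelin genes in their own groups. NDI1 control went the other way: its library with the highest brain stem sum, 8.06 CPM, had its lowest myelin sum, 11193.9 CPM. Whether the myelin level followed the brain stem genes was not tested. Results that rest on these 3 libraries are given with and without them.

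Per length, the 33 genes spanned a wide range of levels. Mbp, which binds the inner faces of the myelin membrane to each other, was the highest at 626 ± 117 RPKM (mean ± SD over 24 libraries), and its lowest library, at 492 RPKM, lay above the highest library of every other member. Cnp, an enzyme of the cytoplasmic channels of myelin, had 211 ± 26.6 RPKM. Mobp, a second protein of the inner membrane faces, had 210.1 ± 44.7 RPKM, and Qdpr, which regenerates tetrahydrobiopterin, had 205 ± 37.6 RPKM. These 3 levels lie closer to each other than 1 SD of any of them, so their order is not resolved. Plekhb1, a membrane-binding protein with a pleckstrin homology domain, followed at 169.9 ± 18.8 RPKM and Mal, a small membrane protein of lipid rafts, at 159.6 ± 38.9 RPKM, again within 1 SD of each other. The highest of the junction and node genes was Cldn11, the claudin that seals myelin layers, at 133 ± 27.9 RPKM. The highest of the lipid genes was Enpp2, the secreted enzyme autotaxin, at 133 ± 40.2 RPKM. Enpp2 and Cldn11 had nearly equal levels. Of the transcription factors, Nkx6-2 had 17.4 ± 3.49 RPKM and Myrf, which switches on myelin genes, 5.64 ± 1.16 RPKM. Abca8a, a membrane transporter of the ABC family, was the lowest at 0.688 ± 0.196 RPKM.

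Summed over the 33 genes, the level was 10504 to 12562 CPM (median 11063) in cKO+NDI1, 12328 to 18228 CPM (median 14041) in cKO, 11194 to 13141 CPM (median 12057) in NDI1 control and 12489 to 14568 CPM (median 13810.3) in Cre control cerebella. The sum is dominated by the structural genes, which alone gave 7083 to 8537 CPM (median 7411) in cKO+NDI1 and 8807 to 14030.1 CPM (median 10063) in cKO cerebella. They gave 7515 to 8948 CPM (median 8091) in NDI1 control and 8692 to 10073 CPM (median 9722) in Cre control cerebella. The median was lowest in cKO+NDI1, and the cKO libraries had the widest spread. In bulk tissue, fewer oligodendrocytes and less of these RNAs per oligodendrocyte cannot be told apart.

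**Figure D1:**
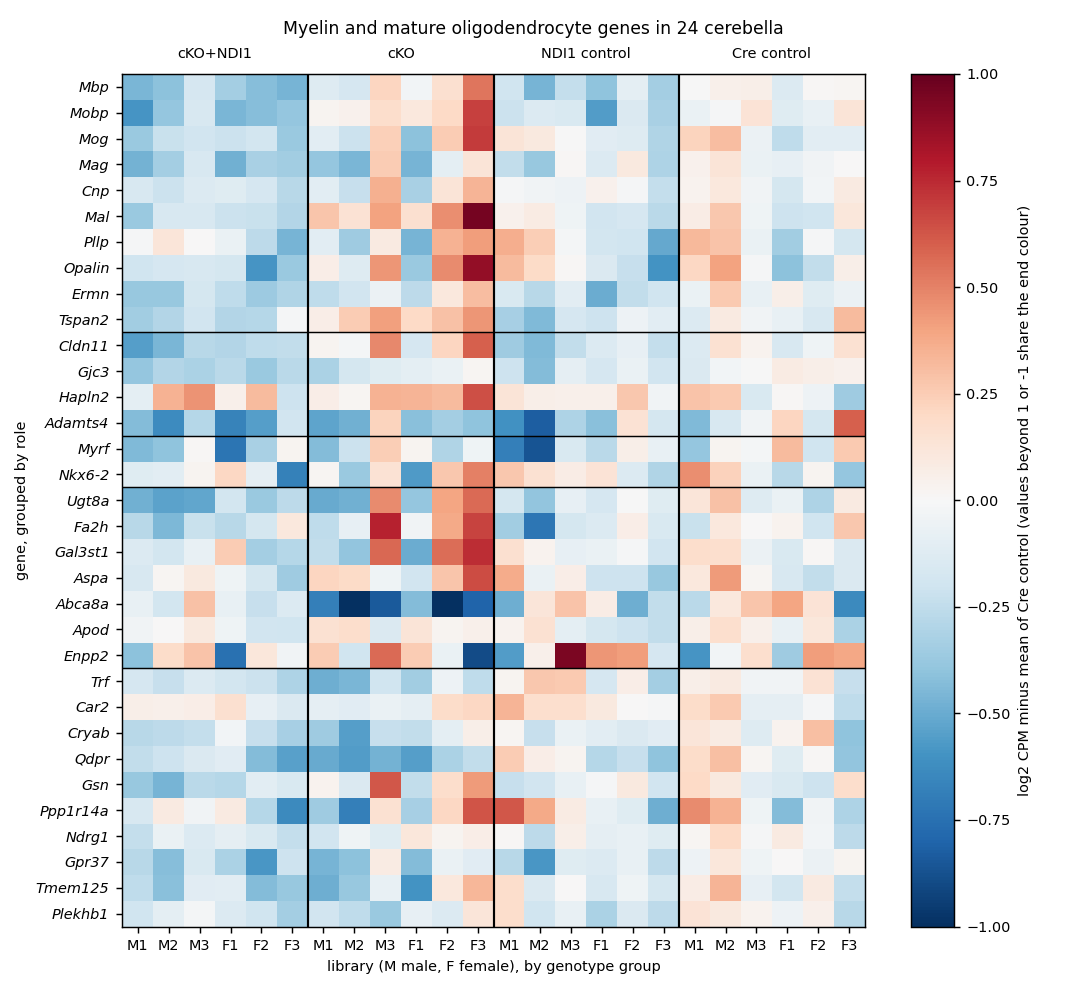
Each row is 1 of the 33 genes, grouped by role, and each column is 1 of the 24 libraries, in the order cKO+NDI1, cKO, NDI1 control and Cre control; colour gives log2 CPM minus that gene's mean in Cre control libraries. The structural genes are mostly below the Cre control mean in cKO+NDI1 libraries, and the third female library of cKO stands out as high in many rows.

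The first contrast asks how the cerebellum with both the deletion and NDI1 differed from that with the deletion alone. In cKO+NDI1 against cKO, 5 of the 33 genes fell and 0 rose (edgeR quasi-likelihood F test, Benjamini-Hochberg adjustment over all genes). They were Mobp, Tspan2, Mal, Cldn11 and Mbp. Across all 15300 genes, 0.209% passed the same test. The fold changes were negative for 28 of the 33 genes, with a median log2 fold change of -0.18, where the median of all genes was -0.01. All 10 structural genes had negative values, with a median of -0.44, and 4 of these 10 passed the test. These counts and medians describe the list and are not a test of it. Errors of log2 fold changes, written after ±, are standard errors throughout.

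Mobp measured 1011 to 1362 CPM (median 1151) in cKO+NDI1 cerebella, against 1556 to 2449.9 CPM (median 1681) in cKO cerebella, and the groups did not overlap. The difference passed the test, at a log2 fold change of -0.62 ± 0.10 (SE, adjusted p = 0.00728). Mobp lies on chromosome 9 from 120149742 to 120181484, plus strand (ENSMUSG00000032517) in mm10, the build of all gene coordinates here, as the deposited table gives it. Mbp measured 4170.3 to 5127 CPM (median 4314) in cKO+NDI1 cerebella, against 5146 to 8353 CPM (median 6050.3) in cKO cerebella. Mbp groups did not overlap either, with a log2 fold change of -0.49 ± 0.09 (SE, adjusted p = 0.0194). Mbp is the protein without which central myelin does not compact. Mal measured 332 to 384 CPM (median 367) in cKO+NDI1 cerebella, against 472 to 831 CPM (median 542) in cKO cerebella. The Mal groups were also separate, with a log2 fold change of -0.67 ± 0.11 (SE, adjusted p = 0.0094). The gene lies on chromosome 2 from 127633226 to 127656695, minus strand (ENSMUSG00000027375).

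Tspan2 is a tetraspanin of the myelin membrane, encoded on chromosome 3 from 102734529 to 102772292, plus strand (ENSMUSG00000027858). Tspan2 measured 197 to 248 CPM (median 205) in cKO+NDI1 cerebella, against 263 to 341 CPM (median 304) in cKO cerebella, with no overlap between groups and a log2 fold change of -0.52 ± 0.08 (SE, adjusted p = 0.00728). Cldn11 forms the tight junctions between layers of myelin and lies on chromosome 3 from 31149920 to 31164324, plus strand (ENSMUSG00000037625). Cldn11 measured 179 to 221 CPM (median 215) in cKO+NDI1 cerebella, against 234 to 397 CPM (median 285) in cKO cerebella, again without overlap and with a log2 fold change of -0.56 ± 0.10 (SE, adjusted p = 0.0187). In all, the 6 cKO+NDI1 libraries were wholly apart from the 6 cKO libraries for 6 of the 33 genes, the 5 named above, which were lower, and Abca8a, which was higher; 0.954% of all genes were separated in this way.

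The other structural genes had negative values that did not pass the test. Opalin, a membrane glycoprotein of the loops beside the node, had a log2 fold change of -0.57 ± 0.17 (adjusted p = 0.214), and Mog, on the outer surface of the sheath, had -0.38 ± 0.13 (adjusted p = 0.334). Ermn, which binds the actin skeleton, had -0.26 ± 0.09, Cnp -0.23 ± 0.09, Mag, the adhesion protein on the membrane that faces the axon, -0.21 ± 0.11, and Pllp, a raft protein like Mal, -0.15 ± 0.15. Of the lipid genes, 6 of 7 were negative, with a median of -0.31, and 0 passed. Fa2h, which adds the hydroxyl group of hydroxylated myelin sphingolipids, had -0.50 ± 0.14 (adjusted p = 0.207), and Ugt8a, which makes galactosylceramide, had -0.47 ± 0.16 (adjusted p = 0.296). Gal3st1, which sulfates galactosylceramide, had -0.33 ± 0.17 and Aspa, which splits N-acetylaspartate, -0.31 ± 0.13. The 10 other enzymes, carriers and signalling genes had a median of only -0.06, with 6 negative and 0 called. Among them Gsn, the actin-severing protein gelsolin, had -0.45 ± 0.12 (adjusted p = 0.151), Car2, a carbonic anhydrase, 0.01 ± 0.08, and Cryab, a small heat shock protein, 0.00 ± 0.10.

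The transcription factors Myrf and Nkx6-2 had log2 fold changes of -0.18 ± 0.15 and -0.15 ± 0.16 in this contrast, and neither passed. Nkx6-2, a homeobox factor of the oligodendrocyte lineage, measured 20.6 to 38.1 CPM (median 30.9) in cKO+NDI1, 22.2 to 46.7 CPM (median 34.95) in cKO, 26.8 to 39.7 CPM (median 35.6) in NDI1 control and 25.2 to 45.5 CPM (median 32.6) in Cre control cerebella, and all 4 groups overlapped. Exons of Inpp5a on the opposite strand cover 12.9% of the exon bases of Nkx6-2, and whether the counting used the strand is not given in the sources used here. Exons on the opposite strand also cover 17.04% of Cryab (Hspb2), 8.43% of Ndrg1, 6.52% of Ermn, 5.97% of Enpp2, 4.23% of Cnp, 3.56% of Adamts4 and 1.85% of Tspan2, so reads of both strands may enter those counts.

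Without the third female library of cKO, the highest of its group for 21 of the 33 genes, the same 5 genes were called, at a log2 fold change of -0.51 for Mal, -0.50 for Mobp and -0.39 for Mbp. Without all 3 libraries with high brain stem genes, 4 of the 5 passed, and Cldn11 had -0.50 with an adjusted p = 0.06 by the same edgeR test; this setting was chosen after seeing the data. Leaving out the first or the second male library of cKO+NDI1 brought the count to 3, with neither Cldn11 nor Mbp passing. Mbp also failed the threshold without the second or the third female library of cKO+NDI1 or the second female library of cKO.

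**Figure D2:**
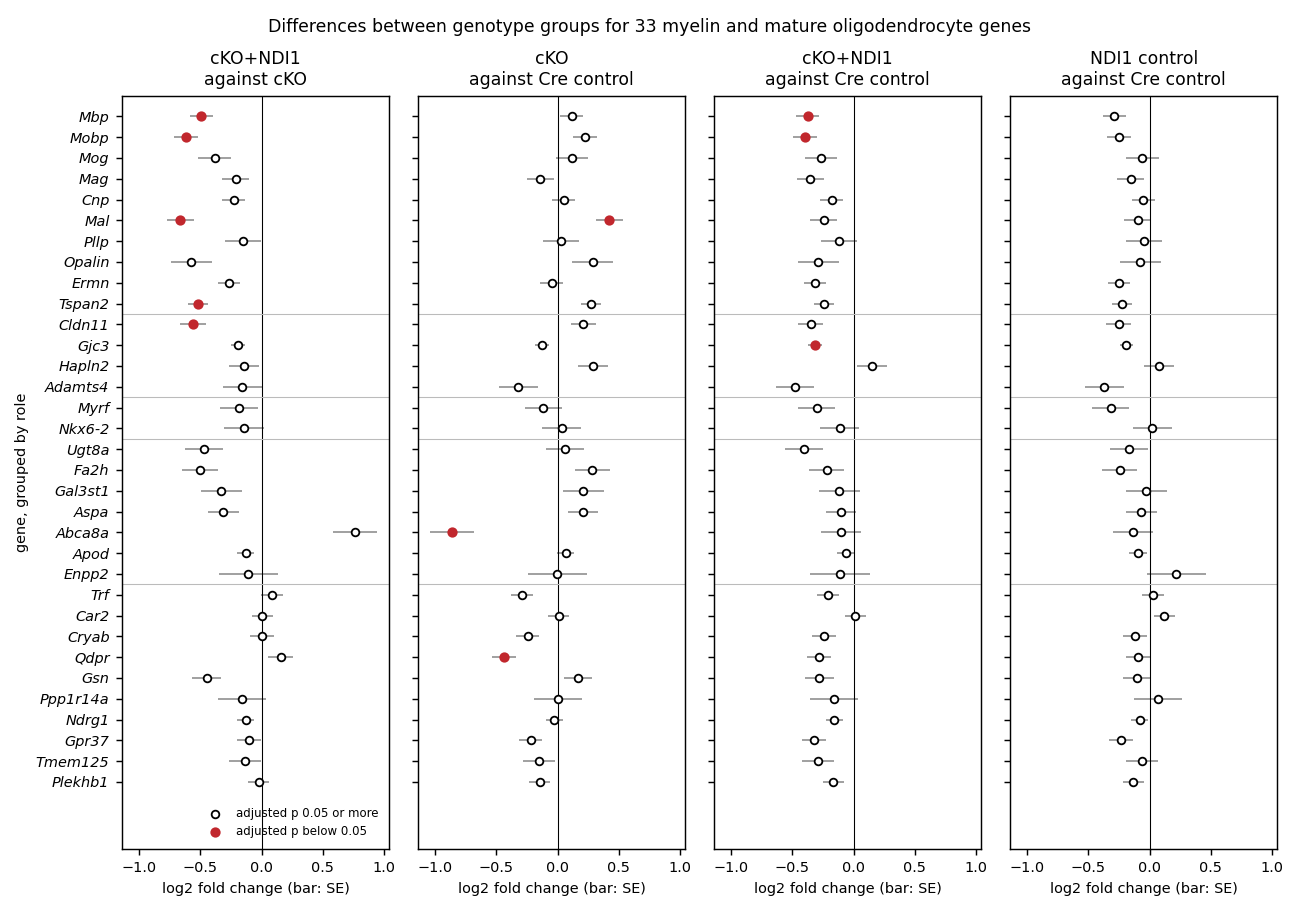
Points give the log2 fold change of each of the 33 genes, with bars of 1 SE, in 4 contrasts between genotype groups; red points passed an adjusted p of 0.05 and the line at 0 marks no difference. In cKO+NDI1 against cKO, 28 of the 33 points lie below 0 and 5 are red, among the structural and junction genes.

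The promoters of 3 of the genes that fell together are shown so that the sequences of genes that moved in 1 direction can be compared. They are from RefSeq, build GRCm38.p6, 5′ to 3′ on the strand of the gene, and cover up to 250 bases before the RefSeq start. The Mobp region is chr9:120149492-120149706 (plus strand), shortened by 35 bases that the annotation also gives as exon; the Mal region is chr2:127656696-127656945 (minus strand) and the Cldn11 region is chr3:31149670-31149919 (plus strand). Capitals mark the SOX core, ACAAAG or its reverse complement CTTTGT, the letters that SOX factors such as Sox10 are known to bind.
Mobp promoter: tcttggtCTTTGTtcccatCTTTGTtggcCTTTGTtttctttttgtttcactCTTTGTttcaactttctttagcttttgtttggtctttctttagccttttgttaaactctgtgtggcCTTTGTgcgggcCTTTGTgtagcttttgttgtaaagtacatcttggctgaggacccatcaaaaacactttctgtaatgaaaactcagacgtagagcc
Mal promoter: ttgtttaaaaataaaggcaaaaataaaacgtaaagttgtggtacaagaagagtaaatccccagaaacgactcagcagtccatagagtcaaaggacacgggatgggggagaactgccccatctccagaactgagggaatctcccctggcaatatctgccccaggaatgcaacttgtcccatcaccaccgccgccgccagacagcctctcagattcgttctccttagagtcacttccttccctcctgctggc
Cldn11 promoter: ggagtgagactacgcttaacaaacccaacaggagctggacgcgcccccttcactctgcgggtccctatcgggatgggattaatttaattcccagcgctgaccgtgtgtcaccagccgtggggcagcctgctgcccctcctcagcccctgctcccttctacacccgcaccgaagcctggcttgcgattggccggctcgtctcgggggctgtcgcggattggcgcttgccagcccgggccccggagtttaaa
The Mobp sequence holds 6 SOX cores, all read as CTTTGT, and the Mal and Cldn11 sequences hold 0. Of the 33 genes, 24 matched a full-length RefSeq promoter on their chromosome and strand, and the one nearest the deposited gene start was used. It lay 4959 bases from that start for Aspa, 2717 for Gsn, 749 for Gpr37, 318 for Tmem125 and 241 or fewer for the others. Some may thus not be the promoter of the counted gene. In the 250 bases before the RefSeq start and on either strand, 5 of these 24 genes held a SOX core (20.8%), against 15.1% of all 18843 promoters matched in the same way. The MYRF motif, searched as CTGGCAC or CTGGTAC on either strand, was in 4 of 24 (16.7%), namely Mog, Mag, Cnp and Hapln2, against 5.67% of all promoters. The letters of the 2 motifs do not overlap. A match describes these letters only, and binding was not measured here.

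The second contrast asks how cerebella with the deletion alone differed from those of the Cre control. In cKO against Cre control, 1 of the 33 genes rose, Mal, and 2 fell, Abca8a and Qdpr, where 4.87% of all genes passed the test; a count of this size is not read as a result about the list. The fold changes were positive for 19 genes and negative for 14, with a median of 0.03 against -0.01 for all genes. This balance turned with single libraries: the median was -0.05 without the third female library of cKO (20 genes negative), -0.03 without the second female library of cKO and -0.01 without the first female library of Cre control. It was highest, at 0.11, without the second male library of cKO. For 0 of the 33 genes were the cKO and Cre control libraries wholly apart, where 2.69% of all genes were. This contrast and that of cKO+NDI1 against cKO share the 6 cKO libraries, so their values are given beside each other and not correlated. The count of 3 was 6 without the third female library of Cre control, with Tspan2, Trf and Cryab added, and 5 without the second male library of NDI1 control, with Tspan2 and Trf added. The same 3 genes passed without the 3 libraries with high brain stem genes.

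Mal measured 472 to 831 CPM (median 542) in cKO cerebella, against 370.2 to 514 CPM (median 433) in Cre control cerebella. Of the cKO libraries, 4 lay above every Cre control library and all 6 above the Cre control median. Mal had a log2 fold change of 0.42 ± 0.11 (SE, adjusted p = 0.0271). It was 0.27 (adjusted p = 0.0474 by the same edgeR test) without the third female library of cKO. Mal did not pass without the third male, the first female or the second female library of Cre control, or without the second female library of cKO. Tspan2 had 0.28 ± 0.08 and just missed the threshold (adjusted p = 0.0509). Mobp had 0.22 ± 0.10 and Mbp 0.12 ± 0.09, and neither passed. Of the structural genes, 8 of 10 were positive, with a median of 0.12.

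Abca8a lies on chromosome 11 from 110025634 to 110095978, minus strand (ENSMUSG00000041828). Abca8a measured 2.32 to 3.65 CPM (median 2.79) in cKO cerebella, against 3.17 to 6.48 CPM (median 5.36) in Cre control cerebella, with a log2 fold change of -0.86 ± 0.18 (SE, adjusted p = 0.00588). In cKO+NDI1 cerebella it measured 4.19 to 6.05 CPM (median 4.59), above all 6 cKO libraries, at a log2 fold change of 0.76 ± 0.18 (SE, adjusted p = 0.0947), which did not pass. It is the least abundant of the 33 genes and has near relatives in the same gene cluster, so reads could be split among them; of these, Abca8b had a log2 fold change of 0.05 ± 0.13 in cKO against Cre control and Abca9 -0.35 ± 0.13 (adjusted p = 0.128). Qdpr lies on chromosome 5 from 45434032 to 45450235, minus strand (ENSMUSG00000015806). Qdpr measured 282 to 349.5 CPM (median 296) in cKO cerebella, against 316 to 510.3 CPM (median 419.8) in Cre control cerebella, with a log2 fold change of -0.44 ± 0.10 (SE, adjusted p = 0.0115). Its level in cKO+NDI1 was 285 to 383 CPM (median 355), at 0.16 ± 0.10 on the log2 scale against cKO (adjusted p = 0.732). Neither fall was lost when any 1 library was left out.

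Genes of astrocytes and of Bergmann glia, the cerebellar cells that surround Purkinje cells, are given beside these falls because 2 of them fell too. Of 16 such genes, all found in the table and 0 of them at 0, 15 had negative values and 2 fell, Slc1a3 (log2 fold change -0.28 ± 0.05, adjusted p = 0.00262) and Fabp7 (log2 fold change -0.97 ± 0.18, adjusted p = 0.00211). By edgeR 6 of the 16 had an unadjusted p under 0.05. In cKO against Cre control, 4.87% of all genes passed and 18.5% had such an unadjusted p. The summed level of the 16 genes was 8194 to 9716 CPM (median 8626) in cKO, against 9484 to 10243 CPM (median 9903) in Cre control cerebella. Of 13 genes of Purkinje cells and inhibitory interneurons, 11 had negative values and 0 passed by edgeR (0 at an unadjusted p under 0.05). Their summed level was 11874 to 12905 CPM (median 12463) in cKO, against 13237 to 14065 CPM (median 13493) in Cre control cerebella, and those sums did not overlap. How often sums of other gene sets separate was not measured, so this is not read as a result about the list. All 13 were found in the table and 0 were at 0. What part any of these cells had in the falls of Abca8a and Qdpr was not tested. Trf, the iron carrier transferrin, had a log2 fold change of -0.29 ± 0.09 (adjusted p = 0.0629), but 63.5% of its exon bases are shared with Gm20425 on the same strand, so its count is uncertain.

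**Figure D3:**
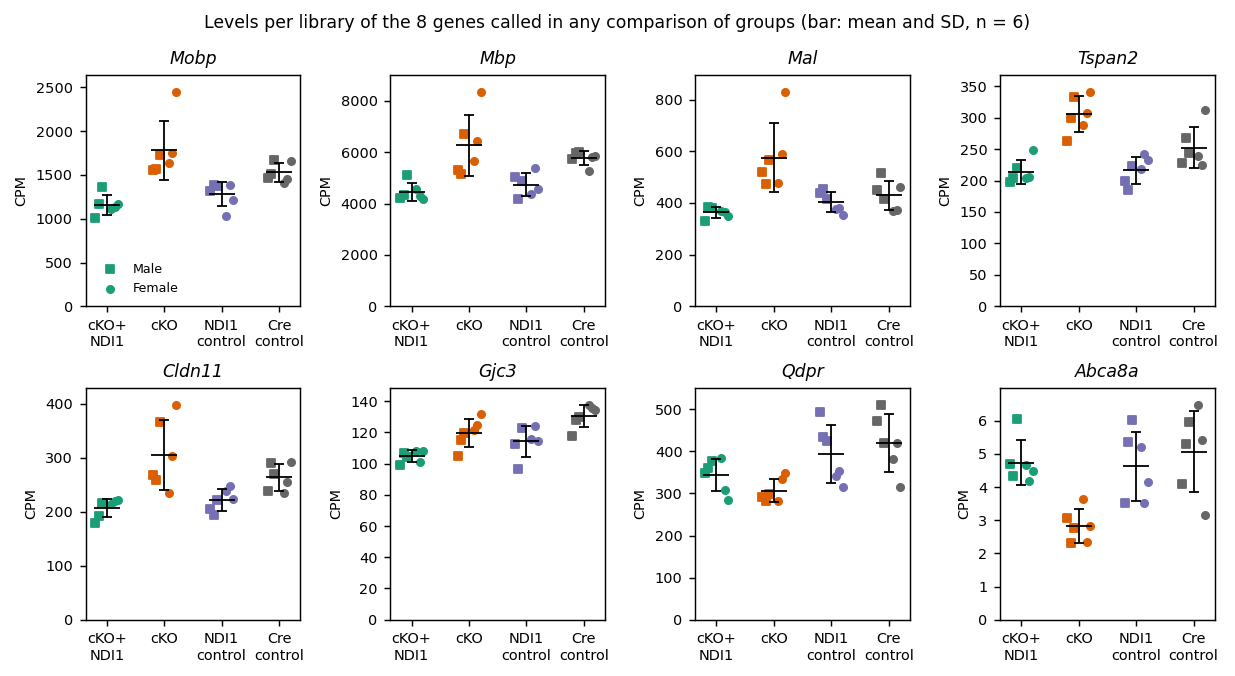
Each panel plots CPM in the 24 libraries for 1 of the 8 genes that passed the test in any contrast between genotype groups, with the mean and SD of each group beside the points. Mobp, Mbp, Mal, Tspan2 and Cldn11 show every cKO+NDI1 library below every cKO library, and Abca8a and Qdpr show lower means in cKO than in Cre control.

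Set against the Cre control, cKO+NDI1 cerebella had lower levels of Gjc3, Mbp and Mobp, 3 of the 33 genes, where 1.25% of all genes passed. In 31 of the 33 genes the value was negative, with a median of -0.24 against 0.00 for all genes. Gjc3 measured 99.4 to 108 CPM (median 106) in cKO+NDI1 cerebella, against 118 to 138 CPM (median 132) in Cre control cerebella, with no overlap and a log2 fold change of -0.32 ± 0.06 (SE, adjusted p = 0.00848). Gjc3 encodes connexin 29, a gap junction family protein of the innermost myelin membrane, on chromosome 5 from 137953809 to 137962959, minus strand (ENSMUSG00000056966). Mbp measured 4170.3 to 5127 CPM (median 4314) in cKO+NDI1 cerebella, against 5251 to 6000.4 CPM (median 5832) in Cre control cerebella, with a log2 fold change of -0.38 ± 0.09 (SE, adjusted p = 0.0441). Mobp measured 1011 to 1362 CPM (median 1151) in cKO+NDI1 cerebella, against 1405 to 1672 CPM (median 1488) in Cre control cerebella, with a log2 fold change of -0.40 ± 0.10 (SE, adjusted p = 0.0454). Both pairs of groups were separate. In all, 7 of the 33 genes had every cKO+NDI1 library below every Cre control library, where 1.58% of all genes were separated; besides these 3 they were Mag, Ermn, Cldn11 and Gpr37, a receptor known to restrain the maturation of oligodendrocytes. Mag had a log2 fold change of -0.35 ± 0.11 (adjusted p = 0.119), Ermn -0.31 ± 0.09 (adjusted p = 0.088), Cldn11 -0.35 ± 0.10 (adjusted p = 0.091) and Gpr37 -0.32 ± 0.10 (adjusted p = 0.1), so these missed the threshold. Larger values with wider errors were those of Adamts4 at -0.48 ± 0.16 (adjusted p = 0.148) and Ugt8a at -0.41 ± 0.16 (adjusted p = 0.222).

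The calls of Mbp and Mobp in this contrast lay close to the threshold: each was lost in 14 of the 24 fits that left out 1 library. The count of 3 fell to 1, Gjc3, without any one of the Cre control libraries other than the first male, any one of the cKO+NDI1 libraries other than the third male, the third female library of NDI1 control or the second female library of cKO. Scaling by library size alone also left 1 gene. The same 3 genes passed without the 3 libraries with high brain stem genes. Gjc3 passed in all 24 fits that left out 1 library. The astrocyte and Bergmann glia sum was 8683 to 9429 CPM (median 8935) in cKO+NDI1, lower than in Cre control cerebella as well. Of the 16 genes in that sum, 14 were negative and 1 passed the edgeR test as lower, where 1.25% of all genes passed. What part these cells had in the values of this contrast was not tested.

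Against NDI1 control, 0 of the 33 genes passed the edgeR test in cKO+NDI1 and 2 had an unadjusted p under 0.05, where 0% of all 15300 genes passed and 4.48% had such an unadjusted p. The values were negative for 28 of 33, with a median of -0.11, and 0 of the 33 genes had groups that did not overlap, where 0.314% of all genes did. In NDI1 control against Cre control, 0 passed and 9 had an unadjusted p under 0.05, where 0.00654% of all genes passed and 9.203% had such an unadjusted p. By DESeq2, 1 of the 33 passed in that contrast, Gjc3, and 0 in cKO+NDI1 against NDI1 control. In NDI1 control against Cre control the values were negative for 27 of 33, with a median of -0.10. All 10 structural genes were negative in this contrast, with a median of -0.12. Median CPM in NDI1 control and Cre control was 4716 and 5832 for Mbp and 398 and 433 for Mal. It was 220 and 241 for Tspan2 and 222 and 262 for Cldn11. Each of these pairs of groups overlapped. Mobp measured 1037 to 1390.2 CPM (median 1345) in NDI1 control cerebella and 1405 to 1672 CPM (median 1488) in Cre control cerebella, and those groups did not overlap. Gpr37 was the other of the 2 genes with no overlap there, at 65.7 to 93.8 CPM (median 85.6) in NDI1 control and 94.6 to 107 CPM (median 97.2) in Cre control cerebella; 0.386% of all genes were so separated.

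Whether the deletion acted differently with and without NDI1 was tested as an interaction, the change in cKO+NDI1 against NDI1 control minus that in cKO against Cre control. Of the 33 genes, 0 passed by edgeR, 7 had an unadjusted p under 0.05, where 0% of all genes passed and 5.18% had such an unadjusted p. DESeq2 also called 0. The values were negative for 25 genes, with a median of -0.17, which was -0.02 without the third female library of cKO and between -0.09 and -0.11 without the third female library of cKO+NDI1, the third female library of Cre control, or the second female or the third male library of cKO. The 2 genes farthest from 0 were Mal at -0.57 ± 0.16 (adjusted p = 0.577) and Abca8a at 0.90 ± 0.24 (adjusted p = 0.537).

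Between males and females, 3 of each in every group, 0 of the 33 genes passed over all groups by edgeR and 5 had an unadjusted p under 0.05, where 0.085% of all genes passed and 16.9% had such an unadjusted p, so the members' count is near the background. The medians of cKO against Cre control had opposite signs in the sexes, and the difference itself was tested. The effect in cKO against Cre control, males minus females, was negative for 30 of 33 genes with a median of -0.32, and 0 passed (13 at an unadjusted p under 0.05), where 0% of all genes passed and 20.6% had such an unadjusted p. In males alone the median was -0.15 and 25 genes were negative; in females alone it was 0.19 and 10 were negative. Without the third female library of cKO, 23 of 33 sex differences were negative, with a median of -0.21, and the median was -0.15 without all 3 libraries with high brain stem genes. In cKO+NDI1 against cKO, the median was -0.14 in males alone and -0.30 in females alone. Its sex difference was positive for 27 genes with a median of 0.23, which was 0.10 without the third female library of cKO and 0.03 without all 3 libraries. Of the 33 genes 0 passed (4 at an unadjusted p under 0.05), where 0.0131% of all genes passed and 8.03% had such an unadjusted p. With 3 libraries a group, 0 of the 5 falls passed within either sex.

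Over the 33 genes, libraries of the cKO group varied most. For 19 of the 33 genes the coefficient of variation was widest in cKO, with a median over genes of 9.89% in cKO+NDI1, 20.1% in cKO, 10.9% in NDI1 control and 13.05% in Cre control. The counts in this paragraph were not made over all genes, so they are not read as particular to these genes. The third female library of cKO was the highest of the 6 for 21 genes, and the highest of all 24 for 15. The third female, the second female and the third male library of cKO were among the upper 3 of the group for 31, 28 and 27 of the 33 genes. The first female, the first male and the second male library were so for 8, 4 and 1. The 2 female libraries in the upper set had brain stem sums of 22.7 and 8.02 CPM, and the third male library 2.998 CPM.

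Enpp2 had the widest spread over the 24 libraries relative to its mean of the 33 genes, and its 4 groups overlapped. It measured 433 to 889 CPM (median 749.6) in cKO+NDI1, 391 to 1080.1 CPM (median 781) in cKO, 495 to 1402 CPM (median 861) in NDI1 control and 485 to 971 CPM (median 766) in Cre control cerebella. Enpp2 is also abundant in the choroid plexus, the tissue that secretes cerebrospinal fluid. Ttr, the defining gene of that tissue, was the second highest of 24 libraries in the third male library of NDI1 control, where Enpp2 was highest, and the second lowest in the third female library of cKO, where Enpp2 was lowest. Where Ttr was highest and lowest, in the second and the first female library of Cre control, Enpp2 ranked 4 and 19 from the top. The ranks lay farthest apart in the second male library of NDI1 control, at 13 for Enpp2 and 4 for Ttr. The 11 choroid plexus and meningeal genes, all found in the table and 0 at 0, summed to 1670.5 to 3719.8 CPM (median 2705) in cKO+NDI1, 1417 to 4012 CPM (median 3129) in cKO, 1926 to 4202 CPM (median 3429) in NDI1 control and 1503 to 4585 CPM (median 2480.3) in Cre control cerebella. What part of Enpp2 came from that tissue was not tested.

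Of the remaining members, Apod, a lipid-carrying lipocalin, had a log2 fold change of -0.13 ± 0.07 in cKO+NDI1 against cKO and 0.07 ± 0.07 in cKO against Cre control. Hapln2, which links the matrix at the node, had -0.14 ± 0.12 and 0.29 ± 0.12 in the same contrasts, and Adamts4, a protease that cleaves such matrix, -0.16 ± 0.16 and -0.32 ± 0.16. Ppp1r14a, an inhibitor of myosin phosphatase, had -0.16 ± 0.20 and 0.00 ± 0.20. Ndrg1, a stress-responsive protein needed for peripheral myelin, had -0.13 ± 0.07 and -0.03 ± 0.07, Tmem125 -0.14 ± 0.13 and -0.15 ± 0.13, and Plekhb1 -0.02 ± 0.09 and -0.14 ± 0.09. For all of these the adjusted p was above the threshold in both contrasts.

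Further genes of the oligodendrocyte lineage were read from the same tests. Of 37 further genes of mature oligodendrocytes, 27 were negative in cKO+NDI1 against cKO, with a median of -0.09, and 1 fell, Bcas1, a marker of newly myelinating cells (log2 fold change -0.37 ± 0.07, adjusted p = 0.033). Of all genes, 0.209% passed in that contrast. In cKO against Cre control, Klk6 (log2 fold change -0.47 ± 0.12, adjusted p = 0.0275), a protease of mature oligodendrocytes, and Serpinb1a (log2 fold change -0.47 ± 0.14, adjusted p = 0.0476) fell. These are 2 of 37 genes, where 4.87% of all genes passed, so the count is near the background and not read as a result about the list. By edgeR 4 of the 37 had an unadjusted p under 0.05, where 18.5% of all genes had. In cKO+NDI1 against Cre control, 30 of 37 were negative, and Bcas1 (log2 fold change -0.42 ± 0.07, adjusted p = 0.00848) and Tmem88b (log2 fold change -0.44 ± 0.11, adjusted p = 0.0406) fell, where 1.25% of all genes passed. Of 24 genes of precursors and of the lineage as a whole, 23 were found and tested, and 0 passed in any contrast between genotype groups by edgeR. At an unadjusted p under 0.05 there were 3 in cKO+NDI1 against cKO, 2 in cKO against Cre control and 5 in cKO+NDI1 against Cre control, where the shares of all genes were 8.56%, 18.5% and 13.5%. In the last of these contrasts all 23 values were negative, with a median of -0.20. Against the same Cre control, 20 were negative in NDI1 control, with a median of -0.17, and 16 in cKO, with a median of -0.12. Of 33 genes of lipid synthesis used in myelin, 1 passed in cKO against Cre control, Fads1, a fatty acid desaturase (log2 fold change -0.22 ± 0.06, adjusted p = 0.0491), where 4.87% of all genes passed. In cKO+NDI1 against cKO 0 passed, with a median of -0.06 and 5 at an unadjusted p under 0.05, where 8.56% of all genes were. In cKO+NDI1 against Cre control, 32 of these 33 lipid genes were negative, with a median of -0.14. There 0 passed by edgeR and 12 had an unadjusted p under 0.05, where 13.5% of all genes had.

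Markers of other cells give the setting of these values. Genes of Schwann cells, which make myelin in peripheral nerve, summed to 25.1 to 34.8 CPM (median 28.9) in cKO+NDI1, 22.2 to 28.6 CPM (median 25.7) in cKO, 22.1 to 35.4 CPM (median 29.4) in NDI1 control and 24.6 to 36.02 CPM (median 33.1) in Cre control cerebella, against sums of 10504 CPM or more for the 33 genes. Of the 10 Schwann cell genes 0 passed in any contrast between genotype groups by edgeR, and 4 were abundant enough to be tested. Genes of the deep cerebellar nuclei, set in the white matter, summed to 257 to 528 CPM (median 328) in cKO+NDI1, 278 to 376 CPM (median 321) in cKO, 268 to 465 CPM (median 351) in NDI1 control and 259.95 to 488 CPM (median 389) in Cre control cerebella, and all groups overlapped. The 15 endothelial genes summed to 782 to 842 CPM (median 818) in cKO+NDI1, 793 to 852 CPM (median 828) in cKO, 774 to 855 CPM (median 802) in NDI1 control and 685 to 786 CPM (median 728) in Cre control cerebella. The cKO sums lay wholly above those of Cre control, and how often sums of other gene sets separate was not measured. In that list Pecam1 rose in cKO against Cre control (log2 fold change 0.76 ± 0.09, adjusted p = 0.000151) and in cKO+NDI1 against Cre control (log2 fold change 0.46 ± 0.09, adjusted p = 0.016). It was 1 of 15 in each contrast, where 4.87% and 1.25% of all genes passed. The 14 microglia genes summed to 256 to 379 CPM (median 337) in cKO+NDI1, 273 to 358 CPM (median 311) in cKO, 246 to 328 CPM (median 279) in NDI1 control and 259 to 338 CPM (median 306) in Cre control cerebella. All 14 were positive in cKO+NDI1 against NDI1 control, with a median log2 fold change of 0.20, and 0 passed by edgeR (4 at an unadjusted p under 0.05). In that contrast 0% of all genes passed and 4.48% had such an unadjusted p. In the granule neuron list Grin2c rose in cKO against Cre control (log2 fold change 0.28 ± 0.06, adjusted p = 0.0106). It was 1 of 13 genes, where 4.87% of all genes passed. Single calls of this kind are not read as results about the lists. In cKO+NDI1 against cKO, Bcas1 was the only gene called outside the 33 in any of the lists.

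**Figure D4:**
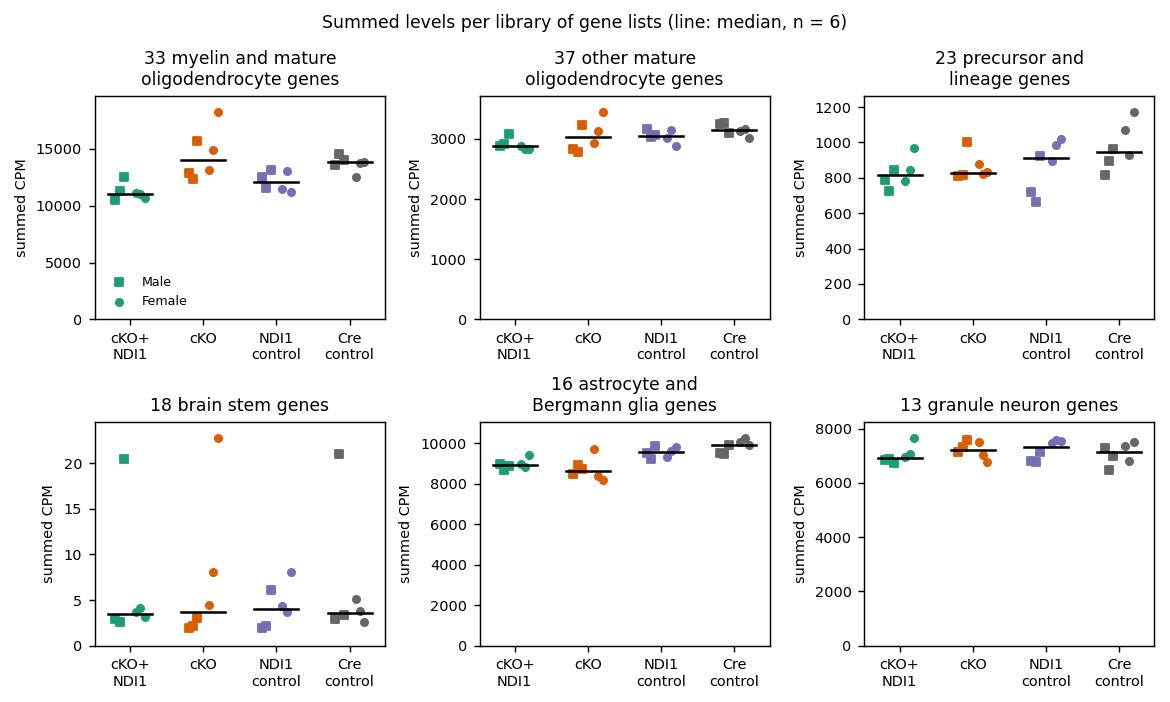
Points give the summed CPM of 6 gene lists in each of the 24 libraries, by genotype group, and lines give the group median. The median sum of the 33 genes is lowest in cKO+NDI1, and the brain stem panel shows 1 high library in each of cKO+NDI1, cKO and Cre control.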

How the data were processed

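The data are RNA sequencing of whole mouse cerebellum, from libraries of polyA-selected RNA per the labels' protocols. Per the submitters' processing notes, the authors used bcl2fastq, Trimmomatic, STAR and HTSeq with the mouse build mm10; versions and the strand setting are not given in the sources used here. The deposited table holds the authors' raw read counts per gene and library, whole numbers with no normalization, in 43430 Ensembl rows, of which 42462 matched a symbol and 15557 were 0 in every library; 0 per-library columns were left unused. The deposited gene coordinates are those printed. The deposited length column exceeded the union of GENCODE M21 exons, which was used for RPKM. For some of the 33 genes, among them Mobp, Qdpr and Enpp2, the deposited start or end differed from GENCODE M21. Their counts and lengths may therefore come from different gene models, which limits the order of levels per length.

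Groups and sexes come from the labels, which do not say that libraries with the same number belong together. The p-values measure the spread between mice as labelled, with 1 estimate per gene shared by all 4 groups. The median coefficient of variation of the 33 genes was 20.1% in cKO and 9.89% in cKO+NDI1. SEs and p-values of contrasts with cKO therefore need not match the spread within the 2 groups compared. No 2 libraries of a group were copies: over 60 pairs within groups, chi-square divided by its degrees of freedom was at least 4.67. Precision is limited by 7584374 to 19785264 counts per library; a floor of 3 counts is 0.1497 to 0.397 CPM, for counting error only. Tests used the quasi-likelihood F test of edgeR (edgeR 4.0.16, limma 3.58.1, R 4.3.3; robust, TMM factors, filterByExpr by group) in 1 model of all 24 libraries with group and sex, adjusted by Benjamini-Hochberg over the 15300 genes tested. Sex differences used a model with a mean for each group and sex. Each SE is the size of the log2 fold change over the square root of F. Alternatives were DESeq2 1.42.0, its size factors, library size alone, no filter on low counts, a replicate block, only the groups compared, each sex alone, thinned counts, each library left out, and, added after seeing the data, the libraries with brain stem genes summing to under 10 CPM.

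The 33 genes and the other lists were chosen with earlier results of these data known. All 33 are reported; levels by library are given for those called between genotype groups and for the highest per length of each role. Outside the 33, the called genes of each list are named, at most 4 a list. The exception is 1 astrocyte and Bergmann glia gene in cKO+NDI1 against Cre control, which is counted and not named there. Protein sequences and Mbp's promoter were not used here.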

Additional observations from a re-analysis of the deposited data

Results flagged for a closer look

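In each genotype group of 6 libraries, the highest and lowest library were compared with their neighbours by Dixon's criterion (critical value 0.625) for the 33 genes and the library total. Of 136 such sets, 7 were flagged, and chance flags about 1 in 20. Mbp was low in the first female library of Cre control, at 5251 CPM against 5742 CPM in the next library. Mobp was high in the third female library of cKO, at 2449.9 CPM against 1747 CPM. Cnp was low in the third female library of NDI1 control, at 669 CPM against 765 CPM. Adamts4 was high in the third male library of cKO, at 60.6 CPM against 41.1 CPM. Nkx6-2 was low in the third female library of cKO+NDI1, the shallowest of the 24, at 20.6 CPM against 30.3 CPM. Abca8a was high in the third male library of cKO+NDI1, at 6.05 CPM against 4.69 CPM. Cryab was high in the first female library of cKO+NDI1, at 134 CPM against 116 CPM. The libraries that stand out for Mobp and Abca8a are 2 of the 3 with high brain stem genes; the part of that in either value was not tested.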

How the results depend on the processing

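Of 374 values of single genes under other settings, 304 kept their direction and their side of the threshold, 70 kept the direction but lost the call, and 0 reversed. Of 293 counts of called genes, 262 stayed within 1.5 times the count reported or stayed at 0, and 31 did not. Most of the 293 belong to contrasts with 0 calls, where a count could not fall. The 262 is therefore no measure of how stable the calls are, and the contrasts with calls are given next. In cKO against Cre control (3 called), the count was 5 by DESeq2, 5 with the replicate block, 1 with only the groups compared, 1 in males and 0 in females. For cKO+NDI1 against cKO (5 called), it was 3 with only the groups compared and 0 in either sex alone. For cKO+NDI1 against Cre control (3 called), it was 1 with library size alone, 1 with thinned counts, 6 by DESeq2, 5 with only the groups compared and 0 in either sex alone. In NDI1 control against Cre control (0 called), it was 1 by DESeq2. With each library left out in turn, the count ran from 2 to 6 in cKO against Cre control (6 without the third female library of Cre control, 5 without the second male library of NDI1 control), from 3 to 6 in cKO+NDI1 against cKO, from 1 to 4 in cKO+NDI1 against Cre control, and was 0 in the other contrasts. Fits within a sex, of only the groups compared or without a library hold fewer samples. Fits of only the groups compared also take the spread from those groups alone. The cause of the other shifts was not tested. The labels give shared replicate numbers no meaning and the data were mixed, so libraries were not treated as paired: 19 of 36 same-numbered pairs correlated at over 0.1 (range -0.40 to 0.51), among them all 6 pairs of M3 (0.19 to 0.51), and 11 of 24 libraries matched best with their own number. The replicate block gave 5 calls in cKO+NDI1 against cKO and 3 in cKO+NDI1 against Cre control. Depth limits Abca8a most, whose lowest library had 2.32 CPM.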
